A study of Mus musculus with 21 samples.

Results

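Epiblast stem cells (EpiSC) were set against early primitive ectoderm-like (EPL) cells of the mouse line A2, over all genes of a bulk RNA-sequencing count table. The members are the 3 libraries labelled A2 EpiSC and the 3 labelled A2 EPL, 6 of 21 libraries, chosen by their labels and not by any measured value. Of 39396 genes in the table, 16575 passed the filter on low counts and were tested. The series sampled lines A2 and D3 at ground, naive and EPL stages and A2 alone at the EpiSC stage, with 3 libraries in each of 7 groups.

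Per the labels, A2 EPL cells were ground-state embryonic stem cells of the line grown for 4 days in DMEM with fetal bovine serum, 330 U/mL LIF and 400 uM L-proline. The A2 EpiSC were described as arising from A2 embryonic stem cells that were put into a pseudopregnant mouse and recovered after implantation, then kept in knockout DMEM with serum replacement, activin A and bFGF. Ground-state A2 and D3 cells were kept with serum, 1000 U/mL LIF and 2i, and naive cells were the same cells 4 days after 2i was withdrawn. Stage, medium and passage through an animal therefore differ together between EpiSC and EPL and cannot be told apart. No genotype or strain is given in the labels, and the number of EpiSC isolates behind the 3 libraries is not stated, nor whether replicates were grown apart. The p-values thus rest on library-to-library spread, which may be technical. The series describes its samples as paired without saying in which way, and no pairing was modelled in the p-values unless a replicate block is named.

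Pluripotent cells pass from a naive state, held by LIF and STAT3 signalling and by factors such as Esrrb, Klf4 and Zfp42, through a formative state marked by Otx2, Pou3f1, Fgf5 and the DNA methyltransferase Dnmt3b, to a primed state. EpiSC, the primed state in culture, depend on activin and FGF signalling, keep Pou5f1 and Sox2, and express early lineage genes such as T and Eomes at low levels. EPL cells, made with L-proline, are placed between the naive and the primed states.

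Total counts were 16600682 to 18115933 in the EPL libraries and 19171874 to 22517799 in the EpiSC libraries. Normalization factors were higher in EpiSC (1.14 in each library) than in EPL (0.976 to 0.999). Levels are given as CPM, counts scaled by library size and TMM factor, and differences as EpiSC minus EPL on the log2 scale. Calls were made below 0.05 of the adjusted p in edgeR's quasi-likelihood test with Benjamini-Hochberg adjustment over all 16575 genes.

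The labels were checked first, because the sources describe the EpiSC as derived from the A2 line. Of 13 Y-linked genes tested, 10 were called lower in the libraries labelled EpiSC and 1 higher. Their summed level was 149.5, 190.4 and 231 CPM in the EPL libraries and 20.3, 22.0 and 36.8 CPM in the EpiSC libraries. The predicted gene Gm47283 made up 58.8, 75.8 and 91.1 CPM of it in EPL and 15.8, 16.7 and 29.1 CPM in EpiSC, most of the EpiSC sums. The pseudogene Gapdh-ps15 was at 0.709, 0.949 and 26.7 CPM in EPL libraries 1 to 3. Mid1-ps1 and Gm21742, among those called lower, were also near 0 in D3 EPL (0.0502 and 0.0143 CPM on average). Eif2s3y was at 25, 31.1 and 28.9 CPM in EPL libraries 1 to 3 and at 0.781, 1.1 and 1.17 CPM in EpiSC libraries 1 to 3 (log2 difference -4.79, SE 0.147, edgeR adjusted p = 4.53e-17). Eif2s3y encodes a subunit of translation initiation factor 2. Ddx3y was at 24.9, 31.5 and 31.2 CPM in EPL libraries 1 to 3 and at 1.24, 1.64 and 2.25 CPM in EpiSC libraries 1 to 3, and Uty was at 12.5, 17.2 and 20.6 CPM in EPL libraries 1 to 3 and at 0.322, 0.508 and 0.959 CPM in EpiSC libraries 1 to 3. Every EpiSC library lay below every EPL library for these 3 genes. The 1 called higher, named after its values were seen, was Kdm5d, a histone demethylase gene, at 0.295, 0.0558 and 0 CPM in EPL and 0.368, 0.469 and 0.75 CPM in EpiSC (log2 difference 2.13, SE 0.607, edgeR adjusted p = 0.00362). Xist, the RNA that coats the inactive X chromosome, was at 3.42, 4.8 and 5.85 CPM in EPL and 33.3, 28.5 and 47.9 CPM in EpiSC (log2 difference 2.96, SE 0.321, edgeR adjusted p = 3.3e-08). The summed Y level was 181.5 to 255 CPM in the other A2 libraries and 202 to 323 CPM in the D3 libraries, so the EpiSC libraries were below all other 18 libraries of the series.

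Genes that tell the lines apart also moved. By a rule set after the values had been seen, a gene off the Y chromosome distinguished the lines if it reached 5 CPM in every ground and naive library of one line and was at least 10-fold above the highest library of the other. This gave 9 genes, 6 high in A2 and 3 high in D3. All 6 A2-high genes were lower in EpiSC than in A2 EPL, and all 3 D3-high genes were higher. Of the 9, only Arhgap6 reached the mean level of D3 EPL. The EpiSC means of the others lay between those of A2 EPL and D3 EPL. The ferritin pseudogene Ftl2-ps was at 551 ± 126 CPM in A2 EPL, 89 ± 18.6 CPM in EpiSC and 0.772 ± 0.176 CPM in D3 EPL (SD, n = 3 each). Ftl1-ps2, another, was at 51.7 ± 11.1 CPM, 7.98 ± 2.13 CPM and 0.0681 ± 0.0161 CPM in the same groups (SD, n = 3 each), and both may share reads with near-identical copies. Mid1 was at 199, 164 and 154 CPM in EPL libraries 1 to 3 and at 6.2, 4.81 and 9.17 CPM in EpiSC libraries 1 to 3 (log2 difference -4.68, SE 0.234, edgeR adjusted p = 1e-13); Mid1 is an X-linked ubiquitin ligase gene. Hprt, which encodes a purine salvage enzyme, was at 8.09, 7.65 and 7.91 CPM in A2 EPL, 95.5, 104 and 84.3 CPM in EpiSC and 201 ± 27.6 CPM (SD, n = 3) in D3 EPL. Arhgap6, also X-linked, was at 0.118, 0.335 and 0.241 CPM in A2 EPL, 39.8, 38.5 and 37.8 CPM in EpiSC and 33.8 ± 1.65 CPM (SD, n = 3) in D3 EPL. At Mid1, Hprt and Arhgap6 the libraries labelled A2 EpiSC did not share the levels of the other A2 libraries, whose 9 values of Hprt lay between 6.86 and 9.55 CPM. "EpiSC" is used below for the libraries so labelled, and a difference between EpiSC and EPL may include one between the cells' origins, which cannot be told apart here from one between stages.

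**Figure D1:**
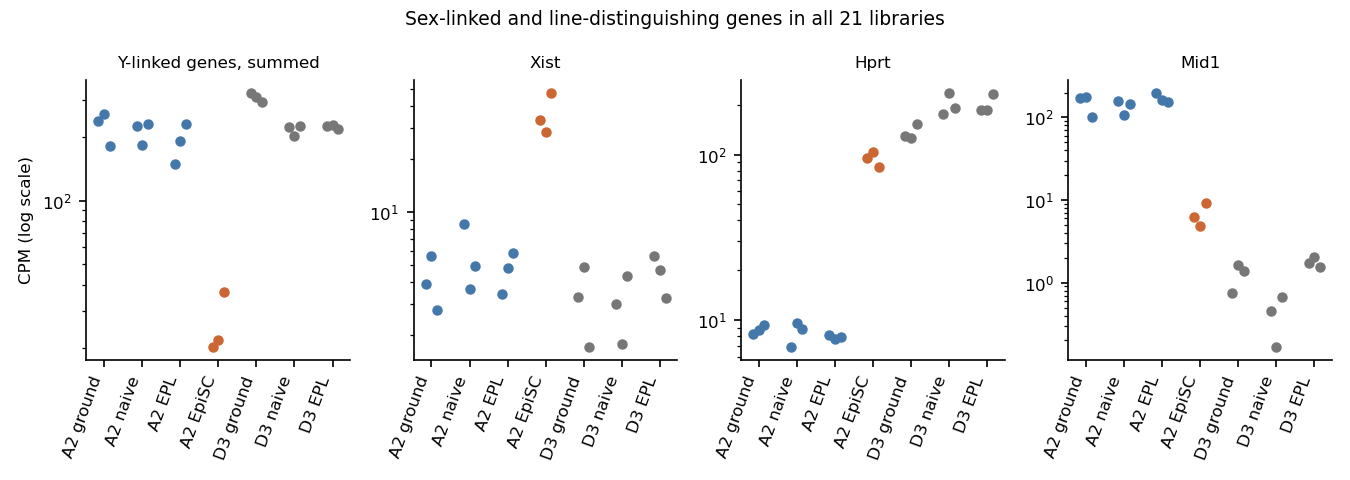
Levels in CPM on a log scale of the summed Y-linked genes, Xist, Hprt and Mid1 in all 21 libraries, 1 point per library (blue, A2 ground, naive and EPL; orange, A2 EpiSC; grey, D3). The 3 EpiSC points lie below all others for the Y-linked genes (20.3 to 36.8 CPM), above all others for Xist, and apart from the other A2 libraries for Hprt and Mid1.

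The medians of 2 chromosomes also differed between EpiSC and A2 EPL. Over all genes tested the median log2 difference was 0.07. On chromosome 8, of 864 genes, 55.3% were called higher and 15.9% lower (39.1% and 31.3% over all genes), with a median of 0.42. On chromosome 1, of 1025 genes, 28.8% were called higher and 43.8% lower, with a median of -0.25. These 2 chromosomes lay farthest from the overall median among the autosomes. Against D3 EPL, the medians of EpiSC were 0.07 on chromosome 8 and 0.12 on chromosome 1. D3 EPL minus A2 EPL gave 0.37 and -0.33. These 3 differences share libraries and are set side by side as values. Chromosome copy number was not measured. The naive list below holds members on both chromosomes, and without the genes of chromosomes 1, 8 and Y 9 of its members were called lower in place of 14, since its members on those chromosomes drop out.

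**Figure D2:**
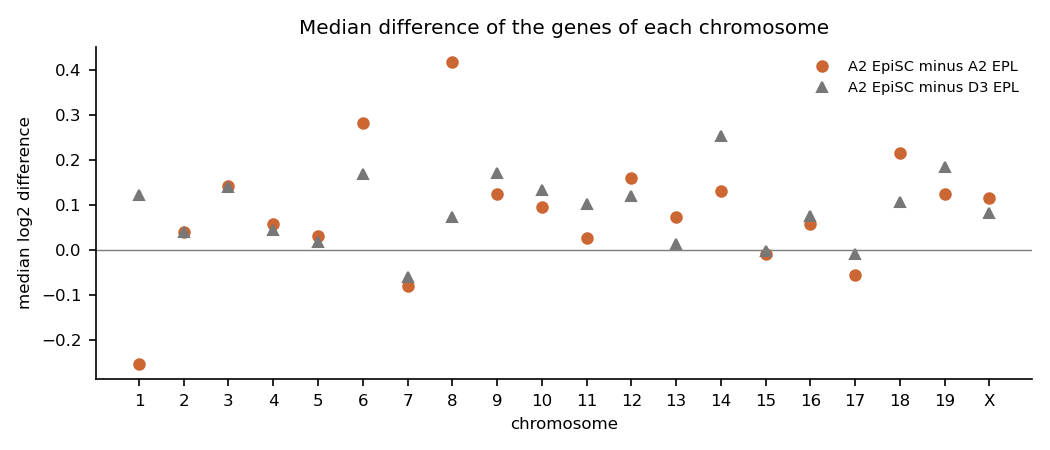
Median log2 difference of the tested genes of each chromosome (autosomes and X), for EpiSC minus A2 EPL (orange circles) and EpiSC minus D3 EPL (grey triangles), which share the EpiSC libraries. Chromosomes 8 and 1 stand at 0.42 and -0.25 against A2 EPL and at 0.07 and 0.12 against D3 EPL.

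Fibroblast markers had the highest median difference of the 44 gene lists examined. The 25 fibroblast markers summed to 1383, 1546 and 1529 CPM in the EPL libraries and 6669.5, 5853 and 8732 CPM in the EpiSC libraries. EpiSC library 3 was the highest, and the other 15 libraries of the series spanned 828 to 2438 CPM. Col1a1 was at 0.354, 0.782 and 0.724 CPM in EPL libraries 1 to 3 and at 1177, 1104 and 1416 CPM in EpiSC libraries 1 to 3 (log2 difference 10.94, SE 0.185, edgeR adjusted p = 1.35e-21). Col1a1 encodes a chain of type I collagen. Col3a1, a chain of type III collagen, was at 0 counts in the EPL libraries and at 279, 271 and 294 CPM in EpiSC, at least 4821-fold higher against a floor of 3 counts over the EPL group. Prrx1, a mesenchymal homeobox factor, was at 0 counts in EPL and 45.4, 41.7 and 63.6 CPM in EpiSC, at least 860.5-fold higher.

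All 25 fibroblast markers were called higher, where 39.1% of all genes tested were called higher and 31.3% lower (70.4% in either direction). In all 25 the EpiSC libraries lay above the EPL libraries without overlap, as they did for 40.1% of all genes, with 32.9% the other way (73% in either direction). Their median log2 difference was 7.22, or 6.79 with members at 0 counts in EPL set to their bound, beside 0.07 over all genes. The 5 markers at 0 counts in EPL were Col3a1, Postn, Lum, S100a4 and Prrx1. A gene low in every other group could pass the filter only through its EpiSC level, so the counts of this and the following lists describe the members that passed and are not support for a direction. In bulk RNA, more cells of a type and more RNA per cell cannot be told apart, and the part of fibroblast transcripts in the results below was not tested.

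Other mesenchymal lists also had most of their tested members called higher. Some share members with the fibroblast list, among them Col1a1, Col3a1, Prrx1 and Lox, so their counts are not independent of it. Of the collagen genes, 21 of 22 passed the filter, 21 were called higher and 0 lower, with a median log2 difference of 5.65. Of the smooth muscle and myofibroblast markers, 10 of 10 passed the filter, 9 were called higher and 0 lower, with a median log2 difference of 3.72. Acta2 was at 0, 0.223 and 0.181 CPM in EPL libraries 1 to 3 and at 233, 193 and 391 CPM in EpiSC libraries 1 to 3; Acta2 is smooth muscle actin. Library 3 was the highest of the EpiSC libraries for Acta2 and for Tagln (313, 250.04 and 441 CPM), an actin-binding protein. Of the collagen and matrix processing enzymes, 20 of 21 were in the table and all passed the filter. Of them, 19 were called higher and 0 lower, with a median log2 difference of 2.31. Lox, which cross-links collagen, went from 0.178 to 133 CPM on average. Of the mesenchymal transition regulators, 21 of 23 were in the table and all passed the filter. Of them, 20 were called higher and 0 lower, with a median log2 difference of 2.80.

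The 12 largest rises among named genes at 5 CPM or more were Col3a1, Prrx1, Ccl2, Col8a1, Tnc, Postn, Tm4sf1, Pcdh7, Mmp3, Ccl7, Il1rl1 and Vcam1. All but Tnc had 0 counts in EPL, so their folds are lower bounds and their rank is that of the log2 difference of the fit. The bounds went down to 270-fold (Vcam1), while Col1a1, not among the 12, was 1960-fold higher. The counts thus do not settle the order or the membership of the 12. Tnc was at 0.0591, 0.0558 and 0.181 CPM in EPL libraries 1 to 3 and at 508, 375 and 764 CPM in EpiSC libraries 1 to 3; Tnc encodes the matrix protein tenascin C. The chemokine gene Ccl2 was at 41.4, 42 and 54.1 CPM in EpiSC, at least 787-fold higher, and the matrix metalloprotease gene Mmp3 at 23.9, 24.1 and 16.2 CPM, at least 366-fold higher. Endothelial and blood markers moved less uniformly. Not all other cell types did, since 18 of the 19 primitive endoderm markers tested, described below, were called higher. Of the endothelial markers, 8 of 10 passed the filter, 2 were called higher and 3 lower (39.1% and 31.3% over all genes), with a median log2 difference of -0.25. Of the blood and macrophage markers, 5 of 10 passed the filter, 3 were called higher and 1 lower, with a median log2 difference of 2.14; Lyz2, a lysozyme of myeloid cells, was at 0 counts in EPL and 9.28, 8.33 and 9.84 CPM in EpiSC, while Cd68, a lysosomal protein of macrophages, went from 33.1 to 7.63 CPM.

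EpiSC library 3 stood apart. A change of at least 2-fold was called for 4947 genes (29.8%). Of the 3655 genes called and at least 2-fold higher (22.1% of those tested), 64.7% had their highest EpiSC level in library 3, against 41.7% of all genes. Of the 1292 genes called and at least 2-fold lower (7.79%), 55.7% were lowest in library 3, against 40.5% of all genes. Without library 3 the counts were 3541 and 1225. Among EPL libraries, library 1 was farthest from its group mean, and without both libraries the counts were 3564 and 1268. Scaling to the total count in place of TMM moved the median of all genes to 0.27 and the share of called genes that were higher from 55.5% to 68.6%. The counts at least 2-fold changed became 4327 higher and 869 lower. Differences of small size, and these counts, thus depend on the scaling.

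Core pluripotency factors were lower in EpiSC. Of this list, 15 of 15 passed the filter, 0 were called higher and 13 lower, with a median log2 difference of -0.95, where 31.3% of all genes were called lower. Pou5f1 was at 1109.5, 1033 and 1080.2 CPM in EPL libraries 1 to 3 and at 514, 554 and 399.7 CPM in EpiSC libraries 1 to 3 (log2 difference -1.13, SE 0.103, edgeR adjusted p = 2.16e-09). Sox2 was at 479.7, 471 and 459.7 CPM in EPL libraries 1 to 3 and at 243, 263 and 203 CPM in EpiSC libraries 1 to 3 (log2 difference -0.99, SE 0.0728, edgeR adjusted p = 5.88e-11). Both encode central transcription factors of pluripotency, and for both the libraries did not overlap, with EpiSC library 3 the lowest. Lin28a was at 599, 614 and 578 CPM in EPL libraries 1 to 3 and at 135, 131 and 117 CPM in EpiSC libraries 1 to 3 (log2 difference -2.22, SE 0.0799, edgeR adjusted p = 5.87e-16); Lin28a encodes an RNA-binding protein that blocks let-7 maturation. Nanog, a homeodomain factor, was at 340.1, 313 and 322 CPM in EPL and 307, 348 and 253 CPM in EpiSC and was not called (log2 difference -0.10, SE 0.0842, edgeR adjusted p = 0.286). Nanog and Lin28b (50.2 to 48 CPM on average) were the members that did not pass the test. The sums of the list were 5817, 6090.5 and 6019 CPM in the EPL libraries and 3050.1, 3156 and 2457 CPM in the EpiSC libraries. EpiSC library 3, highest for the fibroblast markers, was lowest here, as it was for the glycolysis and ribosomal protein sums. The cause was not tested.

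Naive factors moved in both directions. Of this list, 20 of 20 passed the filter, 5 were called higher and 14 lower (39.1% and 31.3% over all genes), with a median log2 difference of -1.09. Nr0b1 was at 189, 194 and 211 CPM in EPL libraries 1 to 3 and at 30.6, 30.9 and 18.3 CPM in EpiSC libraries 1 to 3 (log2 difference -2.89, SE 0.142, edgeR adjusted p = 8.12e-14). Tdh was at 581, 537 and 524 CPM in EPL libraries 1 to 3 and at 73.6, 80.3 and 72.8 CPM in EpiSC libraries 1 to 3 (log2 difference -2.86, SE 0.0865, edgeR adjusted p = 4e-17). Nr0b1 encodes an orphan nuclear receptor and Tdh threonine dehydrogenase, which feeds one-carbon metabolism in mouse embryonic stem cells. Klf2, a Krüppel-like factor, was at 221, 206 and 189 CPM in EPL and 44.5, 46.7 and 30.0 CPM in EpiSC (log2 difference -2.35, SE 0.135, edgeR adjusted p = 1.01e-12). Zfp42 (875 to 317 CPM) and Esrrb (455 to 237 CPM) had log2 differences of -1.46 and -0.94 and were both called lower.

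The 5 naive genes called higher were Spp1, Tbx3, Klf4, Pecam1 and Prdm14. Klf4 was at 50.9, 62.5 and 63.4 CPM in EPL libraries 1 to 3 and at 149, 156 and 118 CPM in EpiSC libraries 1 to 3 (log2 difference 1.26, SE 0.104, edgeR adjusted p = 3.86e-10). Klf4 is a reprogramming factor and a STAT3 target. Tbx3 was at 21.8, 20.04 and 21.7 CPM in EPL libraries 1 to 3 and at 82.7, 80.4 and 91.1 CPM in EpiSC libraries 1 to 3 (log2 difference 2.00, SE 0.0826, edgeR adjusted p = 4.89e-15). Spp1 was at 159.6, 174 and 185 CPM in EPL libraries 1 to 3 and at 712, 691 and 673 CPM in EpiSC libraries 1 to 3 (log2 difference 2.00, SE 0.0716, edgeR adjusted p = 5.87e-16), and Spp1, osteopontin, is also made by mesenchymal cells. The EpiSC libraries lay above all EPL libraries for these 3 genes. In ground-state A2 cells, Klf4 was at 329 ± 27.3 CPM and Tbx3 at 285 ± 8.9 CPM (SD, n = 3), above both EPL and EpiSC. Dppa5a, an RNA-binding protein gene of naive cells, was not called (log2 difference -0.05, SE 0.157, edgeR adjusted p = 0.77).

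Formative genes were mostly lower, where 31.3% of all genes were called lower and 39.1% higher. Of this list, 17 of 18 were in the table and all passed the filter, 3 were called higher and 11 lower, with a median log2 difference of -0.80. Dnmt3b was at 839, 827 and 712 CPM in EPL libraries 1 to 3 and at 91, 96 and 84.2 CPM in EpiSC libraries 1 to 3 (log2 difference -3.13, SE 0.0869, edgeR adjusted p = 9.94e-18). Otx2 was at 57.9, 62 and 57.6 CPM in EPL libraries 1 to 3 and at 14.7, 12.8 and 12.2 CPM in EpiSC libraries 1 to 3 (log2 difference -2.16, SE 0.108, edgeR adjusted p = 1e-13). Pou3f1 was at 68.3, 66.9 and 58.5 CPM in EPL libraries 1 to 3 and at 19.3, 16.2 and 23.6 CPM in EpiSC libraries 1 to 3 (log2 difference -1.71, SE 0.13, edgeR adjusted p = 1.07e-10). Dnmt3b methylates DNA de novo, and Otx2 and Pou3f1 are transcription factors of the exit from the naive state. No EpiSC library reached the lowest EPL library for any of the 3. Foxd3, a forkhead factor, went from 53.6 to 8.09 CPM (log2 difference -2.73, SE 0.139, edgeR adjusted p = 1.45e-13). Fgf5, a growth factor of the epiblast, was the opposite, at 5.31, 3.63 and 4.59 CPM in EPL and 9.79, 9.74 and 18.7 CPM in EpiSC (log2 difference 1.499, SE 0.228, edgeR adjusted p = 4.43e-06), with EpiSC library 3 the highest.

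Most genes of the primed state were called higher in EpiSC than in EPL, where 39.1% of all genes were called higher and 31.3% lower. Of the primed EpiSC list, 19 of 20 passed the filter, 14 were called higher and 2 lower, with a median log2 difference of 2.39. Lefty1 was at 169, 71.9 and 62 CPM in EPL libraries 1 to 3 and at 808, 789 and 559 CPM in EpiSC libraries 1 to 3 (log2 difference 2.83, SE 0.292, edgeR adjusted p = 1.49e-08). Lefty2 was at 146, 85.9 and 75.6 CPM in EPL libraries 1 to 3 and at 396, 398 and 228 CPM in EpiSC libraries 1 to 3 (log2 difference 1.73, SE 0.236, edgeR adjusted p = 9.8e-07). Both encode secreted inhibitors of nodal signalling and are induced by it, and EPL library 1 held the highest EPL level of each. Eomes was at 2.24, 2.23 and 2.66 CPM in EPL libraries 1 to 3 and at 24.2, 23 and 19.7 CPM in EpiSC libraries 1 to 3 (log2 difference 3.23, SE 0.182, edgeR adjusted p = 7.53e-13). T was at 0.0591, 0.447 and 0.181 CPM in EPL libraries 1 to 3 and at 4.82, 4.07 and 4.33 CPM in EpiSC libraries 1 to 3 (log2 difference 4.20, SE 0.387, edgeR adjusted p = 2.45e-09). T and Eomes are T-box factors of the primitive streak. In ground-state A2 cells, Eomes was at 10.9 ± 1.04 CPM and T at 1.7 ± 0.539 CPM (SD, n = 3), above EPL and below EpiSC. Lefty2 was at 117 ± 11.2 CPM there, within the EPL range, and Lefty1 at 13.2 ± 2.24 CPM, below it (SD, n = 3). Nodal itself, the ligand, was at 79.3, 83.4 and 87.8 CPM in EPL and 91, 88.9 and 88 CPM in EpiSC and was not called (log2 difference 0.10, SE 0.0731, edgeR adjusted p = 0.24), but was called higher under scaling to the total count (log2 difference 0.30, edgeR adjusted p = 0.00105).

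The keratins of this list and of the epithelial list, Krt8 (8.08 to 98.3 CPM) and Krt18 (7.7 to 40.4 CPM), rose, with library 3 the highest for both. Set against the label, Lefty1, T and Eomes of the primed state were higher in EpiSC than in EPL, whereas Dnmt3b, Otx2 and Pou3f1, also expressed by primed cells, were lower, and the naive genes Klf4, Tbx3 and Spp1 were higher. The 2 primed members called lower, Mixl1 and Tcf15, were not called without EpiSC library 3.

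**Figure D3:**
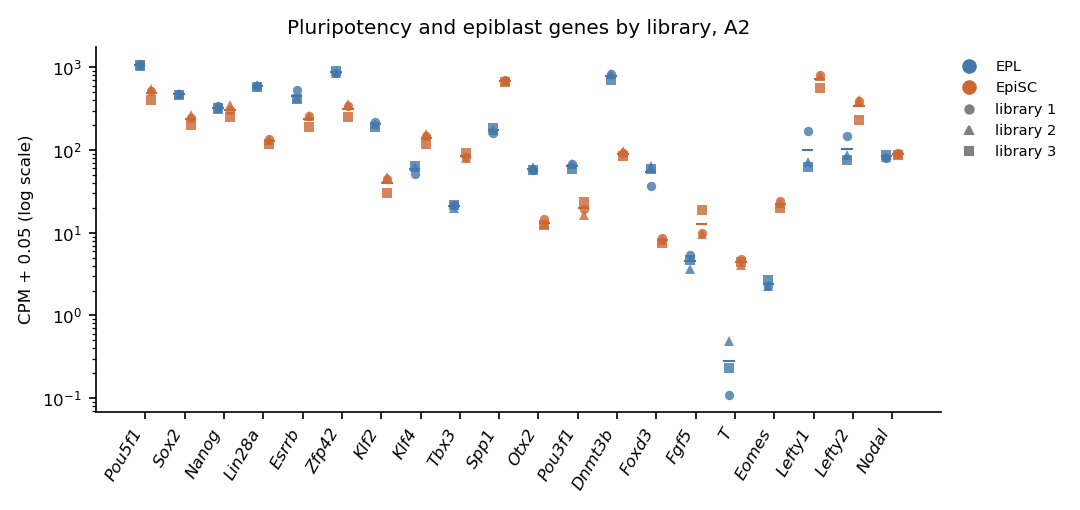
CPM plus 0.05, on a log scale, of pluripotency and epiblast genes in each EPL (blue) and EpiSC (orange) library; circles, triangles and squares are libraries 1, 2 and 3 and bars are means. Dnmt3b, Otx2 and Foxd3 are lower in EpiSC, T, Eomes and Lefty1 higher, and Nanog and Nodal overlap or nearly so.

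The signalling lists are set beside the 39.1% of all genes called higher and 31.3% called lower. Of the nodal and activin list, 23 of 26 passed the filter, 13 were called higher and 7 lower, with a median log2 difference of 0.41. Inhba, a subunit of activin A, was at 0 counts in EPL and 6.07, 4.3 and 9.96 CPM in EpiSC. Of the FGF and ERK feedback list, 25 of 26 passed the filter, 11 were called higher and 11 lower, with a median log2 difference of -0.09 (0.12 under scaling to the total count). Fgf8, a streak ligand, went from 0.353 to 6.05 CPM, while the ligand Fgf17 went from 71.7 to 6.28 CPM and the feedback inhibitor Spry4 from 251 to 37.4 CPM. Of the LIF and STAT3 list, 17 of 17 passed the filter, 6 were called higher and 10 lower, with a median log2 difference of -0.42. Lifr, the LIF receptor, was not called (log2 difference -0.27, SE 0.136, edgeR adjusted p = 0.0842), and was called without EPL library 1 (log2 difference -0.44, edgeR adjusted p = 0.00315). Of the Wnt ligands and receptors, 24 of 24 passed the filter, 18 were called higher and 3 lower, with a median log2 difference of 1.503. Their summed level was nevertheless lower in EpiSC (475.5, 450 and 452 CPM) than in EPL (493, 501 and 529 CPM). Of the BMP list, 24 of 24 passed the filter, 15 were called higher and 6 lower, with a median log2 difference of 1.01.

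Lineage lists had more members called higher than lower in EpiSC, as did all genes tested (39.1% higher and 31.3% lower). Of the primitive streak and mesendoderm list, 18 of 21 passed the filter, 12 were called higher and 2 lower, with a median log2 difference of 2.77. Of the neural list, 13 of 20 passed the filter, 7 were called higher and 3 lower, with a median log2 difference of 1.92. Sox1 was at 1.3, 2.23 and 2.72 CPM in EPL libraries 1 to 3 and at 32.1, 33.8 and 34.3 CPM in EpiSC libraries 1 to 3 (log2 difference 4.00, SE 0.198, edgeR adjusted p = 8.44e-14); Sox1 marks neural plate. Of the primitive endoderm markers, 19 of 20 passed the filter, 18 were called higher and 1 lower, with a median log2 difference of 3.32. Gata4 (2.71 to 29.2 CPM) and Gata6 (1.7 to 25.5 CPM), endoderm transcription factors, and the basement membrane collagens Col4a1 (36.4 to 621 CPM) and Col4a2 (14.5 to 389 CPM) rose. Fibroblasts are known to make both collagens, and the part of fibroblast RNA in their levels was not tested.

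Retinoic acid is made from retinol, cleared by the Cyp26 enzymes and read by nuclear receptors, which bind repeated sequence elements near target genes. Most genes of this pathway rose in EpiSC, while the receptors Rara and Rarg fell. Of the list, 16 of 16 passed the filter, 13 were called higher and 2 lower (39.1% and 31.3% over all genes), with a median log2 difference of 2.85. The promoter stretches of Rarb and Cyp26a1 are shown because both genes rose and both hold the same repeat, in capitals, in the 250 bases before the start annotated by RefSeq on GRCm38.p6. Rarb lies at chr14:16575477-16575726 on the minus strand, and Cyp26a1 at chr19:37697558-37697807 on the plus strand, with its repeat on the opposite strand.
Rarb: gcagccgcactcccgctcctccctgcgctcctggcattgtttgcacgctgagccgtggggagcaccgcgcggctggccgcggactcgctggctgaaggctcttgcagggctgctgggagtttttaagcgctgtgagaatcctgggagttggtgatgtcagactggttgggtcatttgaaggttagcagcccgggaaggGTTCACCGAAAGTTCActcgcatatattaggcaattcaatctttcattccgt
Cyp26a1: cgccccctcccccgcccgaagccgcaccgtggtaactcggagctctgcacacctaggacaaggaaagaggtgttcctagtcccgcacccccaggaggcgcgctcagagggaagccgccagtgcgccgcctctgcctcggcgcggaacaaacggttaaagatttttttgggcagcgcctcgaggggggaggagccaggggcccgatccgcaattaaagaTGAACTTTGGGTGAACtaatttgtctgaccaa

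The repeat searched was GTTCA and AGTTCA with any 5 bases between them, on both strands of 32851 RefSeq promoter windows of 300 bases, and 11 windows (0.0335%) held it. It was written after the element known from Rarb, so its presence there is no finding. It was 1 of 5 forms of the repeat that were searched, and was printed because it matched. The others were AGGTCA and AGGTCA with the same spacer in 3 windows, GGTCA and AGGTCA in 18 and GTTCA and GTTCA in 13, none of them in a retinoid gene, and a degenerate form in 32, again with Rarb and Cyp26a1. Of the 16 retinoid genes, 12 had a window and 2 held the printed repeat. A match describes letters, and binding was not measured.

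Rarb was at 0.118, 0.112 and 0.0603 CPM in EPL libraries 1 to 3 and at 4.32, 4.26 and 7.13 CPM in EpiSC libraries 1 to 3 (log2 difference 5.66, SE 0.511, edgeR adjusted p = 1.82e-09). Cyp26a1 was at 0.295, 0.391 and 0.543 CPM in EPL libraries 1 to 3 and at 16.8, 19.6 and 13.3 CPM in EpiSC libraries 1 to 3 (log2 difference 5.32, SE 0.301, edgeR adjusted p = 7.94e-13). Stra8 was at 1.65, 1.34 and 1.63 CPM in EPL libraries 1 to 3 and at 88.8, 95.4 and 80.5 CPM in EpiSC libraries 1 to 3 (log2 difference 5.84, SE 0.178, edgeR adjusted p = 4.09e-17). Rarb encodes a retinoic acid receptor, Cyp26a1 an enzyme that degrades retinoic acid, and Stra8 a protein of meiotic entry that retinoic acid induces. No EpiSC library of these 3 genes fell near the EPL range, and library 3 was the highest for Rarb and the lowest for Cyp26a1 and Stra8. Stra6, a retinol uptake receptor (0.27 to 25.1 CPM), and Dhrs3, a retinal reductase (0.307 to 25.9 CPM), were highest in library 3. The receptor Rarg went from 279 to 104 CPM (log2 difference -1.43, SE 0.0858, edgeR adjusted p = 2.12e-12).

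Of the Hox genes, which pattern the body axis, 27 of 32 passed the filter, 27 were called higher and 0 lower (39.1% and 31.3% over all genes). Their median log2 difference was 5.62, or 5.16 with those at 0 counts in EPL set to their bound. Their summed level was 3.66, 3.57 and 3.68 CPM in the EPL libraries and 111, 113 and 128 CPM in the EpiSC libraries. Of the 27 called higher, 16 were highest in EpiSC library 3 and 6 were lowest there. The summed level of the fibroblast markers was 6669.5, 5853 and 8732 CPM in EpiSC libraries 1 to 3, highest in library 3 and lowest in library 2, and its part in the Hox levels was not tested.

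**Figure D4:**
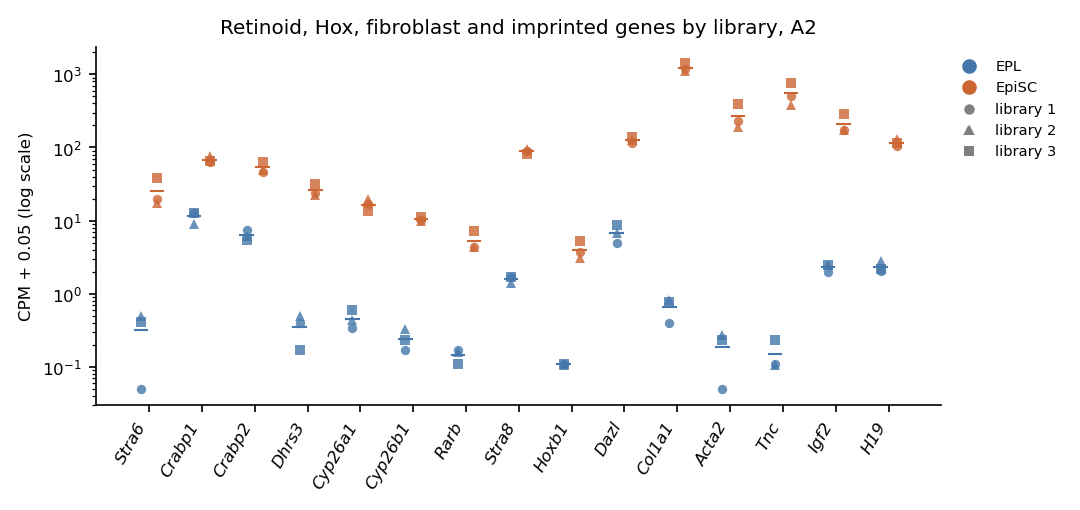
CPM plus 0.05, on a log scale, of retinoid, Hox, fibroblast and imprinted genes in each EPL (blue) and EpiSC (orange) library; circles, triangles and squares are libraries 1, 2 and 3 and bars are means. All 3 EpiSC libraries lie above the EPL libraries for every gene shown, and Tnc and Acta2 are highest in EpiSC library 3.

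Of the germline genes, 20 of 20 passed the filter, 11 were called higher and 5 lower, with a median log2 difference of 0.63, where 39.1% of all genes were called higher and 31.3% lower. Dazl was at 4.9, 6.81 and 8.57 CPM in EPL libraries 1 to 3 and at 116, 125 and 139 CPM in EpiSC libraries 1 to 3 (log2 difference 4.23, SE 0.154, edgeR adjusted p = 7.36e-16); Dazl is an RNA-binding protein of germ cells. The 2-cell-like genes mark a rare state of embryonic stem cell cultures. Of these, 12 of 15 were in the table and all passed the filter. Of them, 12 were called higher and 0 lower, with a median log2 difference of 2.71. Zscan4d was at 1.83, 3.24 and 3.8 CPM in EPL libraries 1 to 3 and at 31.4, 37.6 and 38.6 CPM in EpiSC libraries 1 to 3 (log2 difference 3.60, SE 0.235, edgeR adjusted p = 8.28e-12). The Zscan4 genes are near-identical copies, so the split of reads among them is uncertain. Of the imprinted genes, 31 of 33 were in the table and all passed the filter. Of them, 17 were called higher and 10 lower, with a median log2 difference of 0.62, beside the same shares of all genes. Igf2 was at 1.95, 2.4 and 2.41 CPM in EPL libraries 1 to 3 and at 171, 174 and 291 CPM in EpiSC libraries 1 to 3 (log2 difference 6.55, SE 0.269, edgeR adjusted p = 4.26e-15), and H19 was at 2.01, 2.74 and 2.11 CPM in EPL libraries 1 to 3 and at 103, 131 and 114 CPM in EpiSC libraries 1 to 3 (log2 difference 5.66, SE 0.223, edgeR adjusted p = 2.24e-15). The growth factor Igf2 and the noncoding RNA H19 are neighbours and are abundant in embryonic fibroblasts. Igf2 was highest in EpiSC library 3 and H19 in EpiSC library 2. The part of fibroblast RNA in their levels was not tested.

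Epigenetic and epithelial genes were mostly lower, where 31.3% of all genes were called lower and 39.1% higher. Of the DNA methylation genes, 13 of 13 passed the filter, 2 were called higher and 11 lower, with a median log2 difference of -0.74. Dnmt3l, a cofactor of de novo methylation, went from 556 to 76.9 CPM and Tet1, which oxidises methylcytosine, from 546 to 252 CPM, while Uhrf2 went from 38.1 to 98.9 CPM. Of the polycomb genes, 20 of 20 passed the filter, 4 were called higher and 14 lower, with a median log2 difference of -0.57. Of the epithelial list, 20 of 20 passed the filter, 5 were called higher and 14 lower, with a median log2 difference of -1.09. Esrp1 was at 70.3, 69.5 and 62 CPM in EPL libraries 1 to 3 and at 3.26, 3.44 and 3.42 CPM in EpiSC libraries 1 to 3 (log2 difference -4.31, SE 0.105, edgeR adjusted p = 1.01e-18); Esrp1 sets epithelial splicing. Cdh1, E-cadherin, was at 473, 454 and 427 CPM in EPL and 329.8, 332 and 319 CPM in EpiSC (log2 difference -0.46, SE 0.0746, edgeR adjusted p = 9.54e-06), and Cdh2, N-cadherin, went from 9.69 to 36.5 CPM (log2 difference 1.91, SE 0.172, edgeR adjusted p = 1.79e-09).

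More members were called lower than higher in the lists of glycolysis, ribosomal protein, nuclear respiratory chain and ATF4 response genes. More were called higher than lower in those of cholesterol and fatty acid synthesis, as over all genes tested, where 39.1% were called higher and 31.3% lower. Of the glycolysis genes, 22 of 22 passed the filter, 5 were called higher and 15 lower, with a median log2 difference of -0.90. Ldha was at 2158, 1909 and 1853 CPM in EPL libraries 1 to 3 and at 753, 684 and 332 CPM in EpiSC libraries 1 to 3 (log2 difference -1.74, SE 0.206, edgeR adjusted p = 1.22e-07); Ldha encodes lactate dehydrogenase, and EpiSC library 3 was the lowest. Of the ribosomal protein genes, 32 of 32 passed the filter, 0 were called higher and 31 lower, with a median log2 difference of -0.65. Of the nuclear respiratory chain genes, 41 of 42 passed the filter, 1 were called higher and 27 lower, with a median log2 difference of -0.36, and 16 were called lower under scaling to the total count. Of the ATF4 and amino acid response genes, 24 of 24 passed the filter, 5 were called higher and 18 lower, with a median log2 difference of -0.86; Atf4 went from 245 to 76.6 CPM. Of the cholesterol synthesis genes, 24 of 24 passed the filter, 12 were called higher and 1 lower, with a median log2 difference of 0.28. Of the fatty acid synthesis genes, 16 of 16 passed the filter, 9 were called higher and 4 lower, with a median log2 difference of 0.37. The summed levels of the cholesterol and of the fatty acid list overlapped between the EpiSC and the EPL libraries.

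L-proline was added to EPL cells only. Of the proline genes, 14 of 19 passed the filter, 5 were called higher and 6 lower (39.1% and 31.3% over all genes). Their median log2 difference was -0.10 (0.11 under scaling to the total count). Prodh was at 41.7, 40.3 and 39.3 CPM in EPL libraries 1 to 3 and at 19.9, 20.03 and 17.1 CPM in EpiSC libraries 1 to 3 (log2 difference -1.09, SE 0.0868, edgeR adjusted p = 2.33e-10); Prodh starts proline breakdown. Aldh18a1, which makes proline, was at 70.3, 68.5 and 65.1 CPM in EPL and 61.6, 64.1 and 58.2 CPM in EpiSC (log2 difference -0.15, SE 0.0613, edgeR adjusted p = 0.0355), a small difference that lost the call without EpiSC library 3 (edgeR adjusted p = 0.104), EPL library 1 (edgeR adjusted p = 0.109) or EPL library 2 (edgeR adjusted p = 0.0742). Under scaling to the total count Aldh18a1 turned to 0.057 on the log2 scale and was not called (edgeR adjusted p = 0.407). Its call was also lost with no filter on low counts (edgeR adjusted p = 0.162), in the fit of 12 A2 libraries (edgeR adjusted p = 0.0507) and with a replicate block in the fit of 6 libraries (edgeR adjusted p = 0.0641). Of the G1 cyclins and CDK inhibitors, 18 of 18 passed the filter, 11 were called higher and 5 lower, beside the same shares of all genes. Their median log2 difference was 0.49. Cdkn1a (37.7 to 294 CPM) and Ccnd2 (24.4 to 253 CPM) were highest in EpiSC library 3, and Myc went from 118 to 23.1 CPM.

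Immune and adhesion genes were among the other lists, set beside the 39.1% of all genes called higher and 31.3% called lower. The counts of the trophoblast and Notch lists lay near these shares. Of the antigen presentation and interferon genes, 22 of 23 passed the filter, 17 were called higher and 2 lower, with a median log2 difference of 1.04. B2m was at 11.9, 6.09 and 5.31 CPM in EPL libraries 1 to 3 and at 71, 70.2 and 94.4 CPM in EpiSC libraries 1 to 3 (log2 difference 3.34, SE 0.179, edgeR adjusted p = 3.32e-13); B2m is the light chain of class I molecules, and library 3 was the highest. Of the laminins and integrins, 22 of 22 passed the filter, 16 were called higher and 1 lower, with a median log2 difference of 1.56. Of the canonical Wnt targets, 20 of 20 passed the filter, 11 were called higher and 4 lower, with a median log2 difference of 0.81, and of the trophoblast markers, 11 of 14 passed the filter, 5 were called higher and 3 lower, with a median log2 difference of 0.77. Of the skeletal and cardiac muscle markers, 6 of 10 passed the filter, 5 were called higher and 1 lower, with a median log2 difference of 2.12. Of the Notch list, 15 of 18 passed the filter, 4 were called higher and 5 lower, with a median log2 difference of 0.11, which turned to -0.13 without EpiSC library 3. Of the mitochondrially encoded genes, 13 of 13 passed the filter, 7 were called higher and 0 lower, with a median log2 difference of 0.47.

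**Figure D5:**
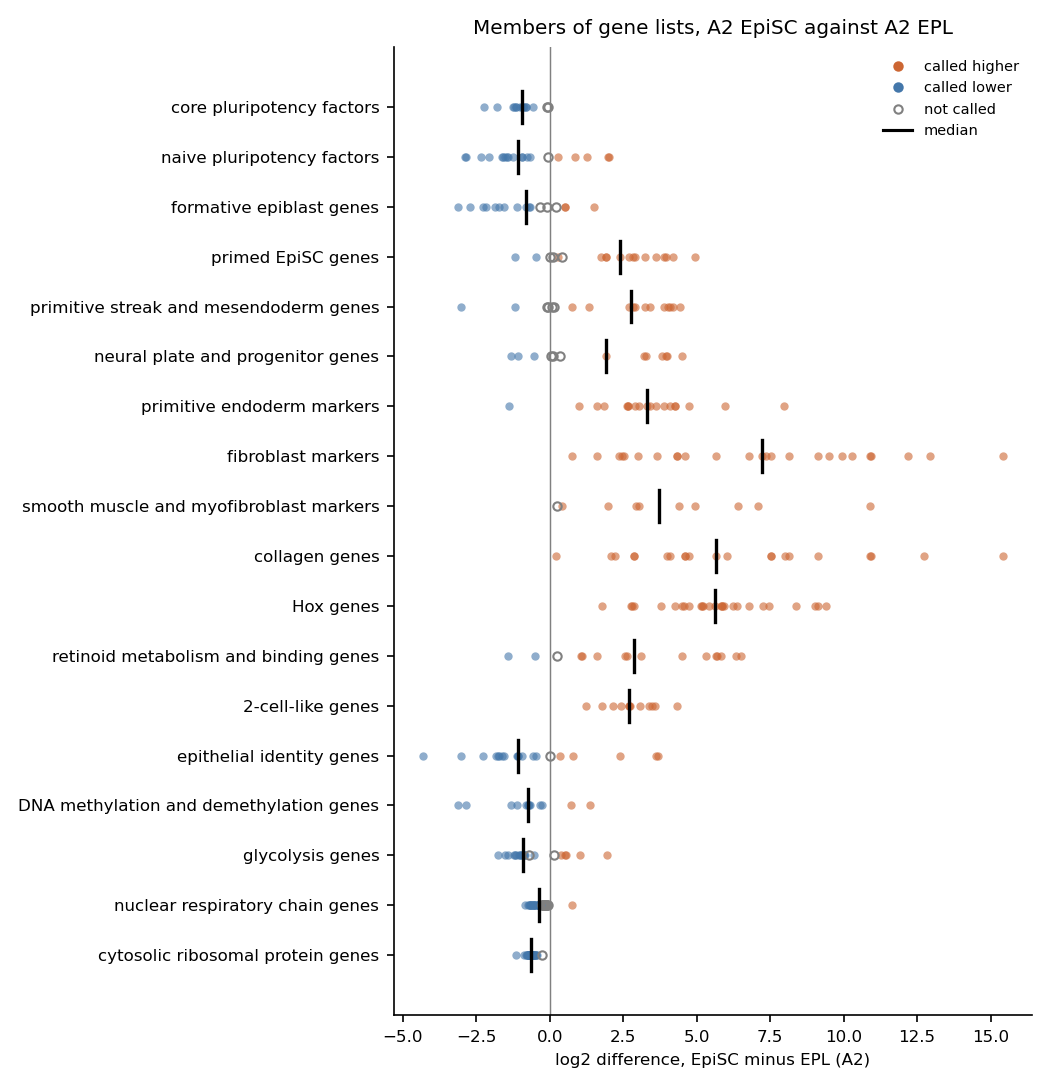
Log2 difference, EpiSC minus EPL, of each tested member of 18 gene lists, coloured by call, with the list's median as a bar. Fibroblast markers, collagens and Hox genes lie farthest to the right, and the core pluripotency, glycolysis and ribosomal protein lists lie mostly left of 0.

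The 12 largest falls were Glod5, Nlrp4a, Eif2s3y, Uty, Mid1, Myt1, Esrp1, Napsa, Ddx3y, Bnipl, Enpp2 and Zp3, of which Eif2s3y, Uty and Ddx3y are Y-linked and Mid1 distinguishes the lines. Nlrp4a was at 11.6, 11.2 and 11.9 CPM in EPL libraries 1 to 3 and at 0.46, 0.352 and 0.333 CPM in EpiSC libraries 1 to 3 (log2 difference -4.91, SE 0.221, edgeR adjusted p = 1.81e-14), and Zp3 was at 6.38, 6.92 and 6.76 CPM in EPL libraries 1 to 3 and at 0.368, 0.665 and 0.292 CPM in EpiSC libraries 1 to 3 (log2 difference -3.88, SE 0.219, edgeR adjusted p = 7.4e-13). Zp3 encodes a protein of the egg coat.

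Line D3 gave EPL libraries that share nothing with the 6 compared here. Of 2548 genes called and at least 2-fold higher in D3 EPL than in D3 ground, 39.4% were called and at least 2-fold higher in EpiSC than in A2 EPL and 14.2% lower, beside 22.1% and 7.79% of all genes. Of 1753 genes lower in D3 EPL, 41.2% were higher in EpiSC and 8.5% lower. Set against D3 naive cells in place of ground, 46.5% of 1189 genes higher in D3 EPL were higher in EpiSC and 11.4% lower. Of 952 genes lower in D3 EPL than in D3 naive, 35.9% were higher in EpiSC and 13.9% lower. These shares are a description with no test, and more genes were higher than lower at this fold over the whole table too.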

How the data were processed

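RNA of 21 mouse libraries was sequenced as bulk TruSeq RNA v2 libraries, a kit that does not mark the strand, per the labels' protocols. Raw read counts per gene were deposited by the authors as 1 table. HISAT2, SAMtools and featureCounts with GRCm38 are named in the submitters' processing notes, without versions, and the annotation and strand setting are not stated. Overlapping and antisense genes and near-identical copies can share reads. Gene positions and exon lengths came from GENCODE M21 on GRCm38, and promoter sequences from RefSeq on GRCm38.p6.

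Genes were kept by filterByExpr (minimum count 10, minimum total 15) and scaled by TMM. Over the 44 gene lists, 11 symbols were not in the table, and these count as members but not among those that passed the filter. edgeR 4.0.16 (R 4.3.3, limma 3.58.1) fitted 1 quasi-likelihood model to all 21 libraries with 1 mean per group, and p-values were adjusted by Benjamini-Hochberg over 16575 genes. In simulated data of 16575 genes, 67 were changed 2-fold, 67 were changed 1.5-fold, 66 were changed 4-fold and the others were left unchanged. Of these, 91%, 68.7% and 97% were called with the right sign. In the real comparison 70.4% of genes were called, so these shares may not hold for it. Alternatives included RLE and total-count scaling, other filters, DESeq2 1.42.0, fits of 6 or 12 libraries, a replicate block, glmTreat and each library left out. Named genes were the 12 largest rises and falls at 5 CPM or more without overlap, up to 5 called members of each list at 2 CPM or more, and a set of 21 pluripotency, cadherin, collagen and proline genes; members outside these were chosen after their values were seen. The comparison, gene lists and rules were chosen with earlier results of these data known. The rule for line-distinguishing genes, the promoter repeats, and 2 alternatives (without EpiSC library 3 and EPL library 1 together; without the genes of chromosomes 1, 8 and Y) were chosen after the values were seen. Values of some single genes are not reported here.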

Additional observations from a re-analysis of the deposited data

How the results depend on the processing

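The counts of genes called, and of those at least 2-fold higher, stayed within 1.5 times of their main values (11667 and 3655) under every alternative run. The count at least 2-fold lower was 1292 and fell to 684 under glmTreat, which tests against a log2 change of 1 and so asks more of each gene. Scaling to the total count gave 869 genes at least 2-fold lower and 4327 at least 2-fold higher. Leaving out each library in turn gave 11126 to 11432 genes called, 3541 to 3888 genes called and at least 2-fold higher and 1225 to 1411 genes called and at least 2-fold lower. Same-numbered EpiSC and EPL libraries deviated from their group means with correlations of 0.0644, -0.0939 and 0.0181, and not every library correlated best with its own number. What the pairing in the series description refers to was not resolved. With a replicate block 11619 genes were called in the fit of 21 libraries and 10845 in the fit of 6.

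Scaling to the total count turned the median log2 difference of the FGF list from -0.09 to 0.12 and of the proline list from -0.10 to 0.11, and turned Nanog from -0.10 to 0.10 and Aldh18a1 from -0.15 to 0.057. The median of the Notch list turned from 0.11 to -0.13 without EpiSC library 3 (up to 0.24 without EpiSC library 2), and to -0.07 without EpiSC library 3 and EPL library 1, where Nanog was at 0.031. Nanog was at -0.23 without EpiSC library 2, where it was called lower (edgeR adjusted p = 0.0171). The cause was not tested. Counting depth limits genes with few reads: 120 of the genes tested had 0 counts in EPL, 114 of them called, and their folds are lower bounds. Fibroblast transcripts, the origin of the cells, medium and stage move together in these libraries and cannot be told apart.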
